A study of Mus musculus with 2 samples.

Results

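The genes described here are 49 genes of neurons and neuroendocrine cells that act in secretory vesicles, the neuronal cytoskeleton and growing neurites, measured in the epidermis of newborn mice with induced SOX11. They were chosen by name, from earlier results of the same comparison, and every probe carrying such a name on both arrays was taken: 75 of the 55676 probes tested, out of 34820 gene names. Of the 49 genes, 30 had 1 probe and 19 had several. SOX11-induced pups carried K14-rtTA and TRE-Sox11-FLAG, and their littermate controls carried K14-rtTA alone. K14-rtTA makes a doxycycline-dependent activator under the keratin 14 promoter, so the FLAG-tagged SOX11 is switched on in keratin 14 positive cells. All pups were of the FVB/N strain, aged postnatal day 4.5, and received doxycycline (Dox) for 12 h, controls included. The epidermis was separated from the dermis of the dorsal skin, and each of the 2 arrays compared 1 induced pup with 1 control pup of the same litter, here called pair 1 and pair 2. On both arrays the labels give Cy3 to the control pup and Cy5 to the induced pup, so dye and genotype cannot be told apart within a probe.

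Neurons and endocrine cells store transmitters and peptides in vesicles. Some synaptotagmins sense the calcium that triggers release. SNARE proteins such as SNAP25, syntaxin and VAMP fuse the vesicle with the membrane, and granins such as chromogranin A fill the dense granules. In a growing neurite, microtubules are handled by tubulin-binding stathmins, doublecortin, collapsin response mediator proteins (CRMPs) and microtubule-associated proteins, and are later joined by neurofilaments. SOX11 belongs to the SOXC group of transcription factors, which is known for its activity in differentiating neurons, while the epidermis holds few cells of neural character, among them Merkel cells and the endings of sensory nerves.

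Both Sox11 probes, at mm9 chr12:28019541-28019600 and chr12:28020087-28020146, stayed below background in both channels on both arrays, with mean log2 ratios of -0.12 and -0.22. The transgene was built from the Sox11 coding region, and whether these probes lie in it was not settled here, so they do not check the labels. All 15 keratinocyte markers measured were lit in the SOX11 channel on both arrays. Of these, 2 were lower at an adjusted p under 0.05 in the limma fit, Col17a1 with a mean log2 ratio of -1.10 and Krt15 with -1.03. None of them was higher at that level. Of all lit gene names, 3.58% were lower and 7.91% higher at that level. The other markers did not pass and went both ways by the brightest probe. Krt1, Krt10, Lor, Ivl, Cdsn and Sbsn were higher in both pairs, and Krt5, Krt14, Itgb4, Dsg1a and Trp63 were lower in both. Dst and Sfn went opposite ways in the pairs. Hair keratin and keratin-associated protein probes, 73 of them lit in the SOX11 channel, differed between the pairs. Their median ratio on the log2 scale was 2.15 for pair 1 against -0.30 for pair 2, and limma called none of them. In RNA of a whole tissue, fewer cells of a type and less RNA per cell cannot be told apart.

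The probe that carried the largest ratio among these genes, and those it is compared with, are short enough to show. Each array probe holds 60 bases, and the 30 bases nearest its 3′ end follow for the 4 genes that were called, from the array's own annotation. Capitals mark AATAAA, the usual signal for cleavage and polyadenylation, which 13.3% of the 75 probes and 10.1% of all tested probes held.
BC005764, mm9 chr10:79327527-79327586, minus strand: acagccccaccAATAAAaacttatgctatt
BC005764, mm9 chr10:79324476-79324535, minus strand: gcaaagaaattccggatcaggcaagaaaaa
Syt5, mm9 chr7:4491370-4491429, minus strand: cttggggccaAATAAAatactcaatagctt
Stmn1, mm9 chr4:134029355-134029414, plus strand: tcctttactttccctcctgacagatagtct
Stmn1, mm9 chr4:134029695-134029754, plus strand: ttAATAAActgcacagtgctgttggtggca
Map1b, mm9 chr13:100192506-100192565, minus strand: tccatttcaattttaaccaattctgtcctc
Map1b, mm9 chr13:100194409-100194468, minus strand: ttttccattaatttcaacacatgggaacac

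A probe was taken as lit where the scanner software marked it well above the local background in that channel, and a gene as lit where at least 1 probe was lit in the SOX11 channel on both arrays. By this measure 26 of the 49 genes were lit, 19 were dark in both channels on both arrays, and Syt1, Dcx, Ina and Elavl4 were above background in part. The lit share was 53.1%, against 46.3% of all gene names on the array, and the dark share was 38.8%, against 48.7%. A probe was called where limma gave an adjusted p under 0.05 and a mean log2 ratio past 1.5. Called higher in SOX11-induced epidermis were 4 of the 49 genes, Syt5, BC005764, Stmn1 and Map1b, beside 0.511% of all gene names. Within the 26 lit genes this was 15.4%, beside 1.11% of all lit gene names. None was called lower, beside 0.129% of all gene names and 0.236% of the lit ones, and at an adjusted p under 0.05 of any size Cplx2 alone was lower, beside 2.02% of all gene names and 3.58% of the lit ones. The genes were picked with this comparison known, so these counts describe them and nothing is read from the difference to the whole array. At an adjusted p under 0.05 of any size, Mllt11, Dpysl5, Dpysl2 and Mapt were also higher, 8 genes in all or 16.3%, against 4.07% of all gene names, and 30.8% of the lit genes, against 7.91% of all lit gene names. The direction was less uniform among the lit genes: by the brightest probe 14 were higher in both pairs, 5 were lower in both, and 7 went opposite ways, beside 40.8%, 33.5% and 25.7% of all lit genes. With Cplx2 taken by its probe of mixed sequence, chosen after the sequences were seen, 4 were lower and 8 went opposite ways. The median log2 ratio of the lit genes was 0.28, with 0.40 in pair 1 and 0.30 in pair 2, against 0.04 over all lit genes. Lit status rests on the SOX11 channel alone, so it more readily admits genes that are higher there. Insm1 entered without a lit control channel, while Syt1, lit in the control channel on both arrays and lower in both pairs, was left out. Dcx and Elavl4, higher in both pairs by the brightest probe, were left out too. The shares, directions and medians of lit genes can carry this tilt.

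**Figure D1:**
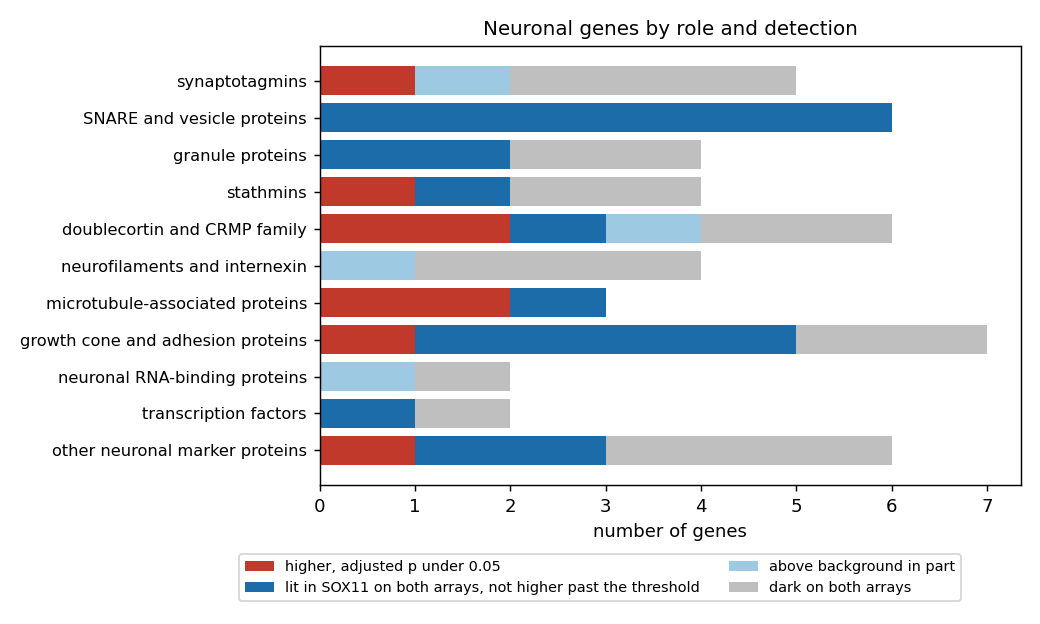
Number of the 49 genes in each functional group (horizontal axis, count of genes), split into those higher at an adjusted p under 0.05, those lit in the SOX11 channel on both arrays without passing it, those above background in part, and those dark on both arrays. The 6 SNARE and vesicle genes were all lit and none was higher past the threshold, beside 7.91% of all lit gene names. None of the 4 neurofilament genes was lit on both arrays, beside 46.3% of all gene names.

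Among the 5 synaptotagmins, Syt5 stood apart. Its log2 brightness was 5.95 in the control and 9.77 in the SOX11-induced pup of pair 1, and 6.08 and 9.16 in pair 2, so that both induced values lay far above both controls. The mean log2 ratio was 3.45 ± 0.52 (SD, n = 2 pairs), a 10.9-fold difference with an adjusted p of 5.0e-05 in the limma fit. The control channel was above background on 1 of the 2 arrays, so its control level is close to the limit of detection. The mean log2 ratio of Syt5 moved with the background correction, to 2.83 with an offset of 50 and to 4.27 with the scanner's processed signals. Syt1, the main calcium sensor of synaptic vesicles, had control levels of 5.80 and 5.92 and SOX11 levels of 5.34 and 5.60, and its mean of -0.39 did not pass the test. Syt4, Syt7 and Syt11 were dark in both channels on both arrays.

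BC005764, named Plppr3 in RefSeq by its accession, encodes a membrane protein of the lipid phosphatase-related family found in neurites. It had the highest ratio of the 49 genes under loess, while with the scanner's processed signals Syt5 was higher, at 4.27 against 3.67. Its probe at chr10:79327527-79327586 read 8.72 in the control and 12.68 in the induced pup of pair 1, and 9.22 and 12.51 in pair 2. All 4 values were well above background and the groups did not overlap. The mean log2 ratio was 3.62 ± 0.47, a 12.3-fold difference with an adjusted p of 3.4e-05 in the limma fit. The other probe of the same name, at chr10:79324476-79324535, was dark in both channels on both arrays, with a mean of -0.15, so the difference was seen with only 1 of its 2 probes. On the minus strand the dark probe lies further towards the 3′ end than the bright one. Which transcript the bright probe reads was not tested.

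Stathmin 1, a protein that binds tubulin and promotes the disassembly of microtubules, was bright in the controls already. Its brighter probe, at chr4:134029355-134029414, read 12.68 and 14.38 in pair 1 and 12.54 and 14.08 in pair 2, control first. Its other probe, further towards the 3′ end, read 10.53 and 12.69 in pair 1 and 10.42 and 12.41 in pair 2. The probes gave mean log2 ratios of 1.62 ± 0.12 and 2.07 ± 0.12, with adjusted p of 0.00053 and 0.00014 in the limma fit, and the pairs differed little. The neuronal relatives Stmn2 and Stmn3 were dark in both channels on both arrays. Stmn4 was lit, with 2 probes that overlap by 44 of their 60 bases and yet differed in pair 2. Their first 30 bases follow, with the bases they share in capitals.
Stmn4, mm9 chr14:66980426-66980485, plus strand: gagacctgccctgcagCGGGTGGGATAAGG
Stmn4, mm9 chr14:66980442-66980501, plus strand: CGGGTGGGATAAGGTCTGTGTGCGTCTGTT
The former read 0.74 in pair 1 and -0.43 in pair 2 on the log2 ratio scale, and the latter read 0.30 and 0.61. Neither mean passed the test, and the latter probe was lit only in the SOX11 channel, where the measured levels give a bound of at least 1.16-fold. A bound of this kind sets the SOX11 level against the dimmest probe above background in the control channel, or against the probe's own control signal where that is higher. It takes no account of the spread between pairs, and it is open to dye bias because no dye swap is in the labels.

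**Figure D2:**
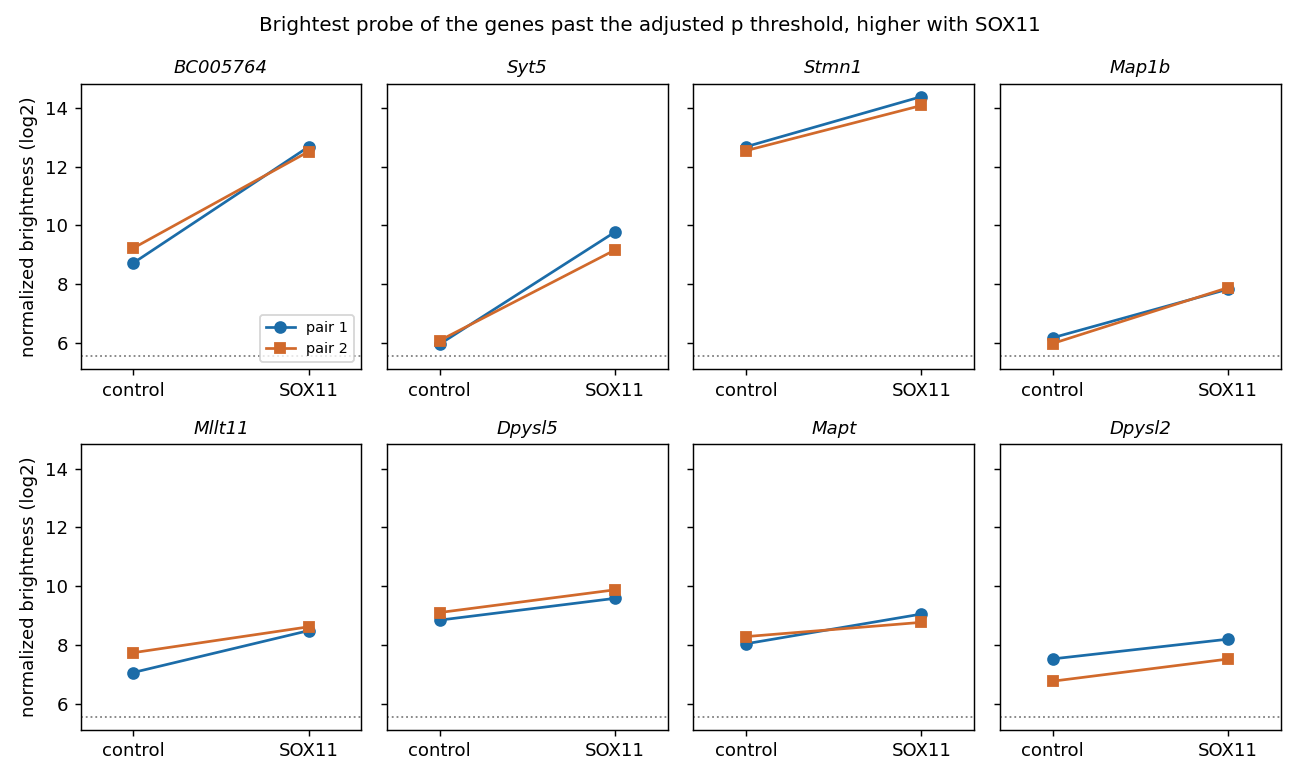
Normalized brightness (vertical axis, log2) of the control and SOX11 channels in pair 1 and pair 2 for the brightest probe of the 8 genes higher at an adjusted p under 0.05; the dotted line is the lowest control signal well above background, averaged over the arrays. In each of the 8 genes both induced pups lay above their own littermate control, with the steepest lines in BC005764 and Syt5.

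The 3 structural microtubule-associated proteins were all lit. Map1b, which stabilises microtubules in growing axons, had control levels of 6.17 and 5.97 and SOX11 levels of 7.82 and 7.88 at chr13:100192506-100192565. The induced values did not overlap the controls, and the mean log2 ratio was 1.78 ± 0.18, a 3.43-fold difference with an adjusted p of 0.00037 in the limma fit. Its other Map1b probe was lit only in the SOX11 channel, with 0.48 in pair 1 and 0.91 in pair 2, a mean of 0.69 ± 0.30 and a difference of at least 1.40-fold. Mapt, which encodes the axonal protein tau, had control levels of 8.04 and 8.28 and SOX11 levels of 9.05 and 8.77 with its brightest probe. The ratio was 1.01 in pair 1 and 0.49 in pair 2, and the mean of 0.75 ± 0.37 had an adjusted p of 0.043 in the limma fit. Its neighbouring Mapt probe gave 0.70 and 0.62, with a mean of 0.66 ± 0.06. The remaining probe was lit only in the SOX11 channel, with a bound of at least 1.35-fold and a mean of 0.43 that did not pass the test. Map2, the dendritic relative, gave 0.60 and 0.53 with its brightest probe, and none of its 3 probes, with means of 0.56, 0.53 and 0.49, passed the test. The last of these was lit only in the SOX11 channel, with a bound of at least 1.22-fold.

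The CRMPs carry guidance signals to the cytoskeleton of the growth cone and are listed with doublecortin, a microtubule protein of migrating neurons. Dpysl5 had control levels of 8.84 and 9.10 and SOX11 levels of 9.58 and 9.87. The ratio was 0.74 in pair 1 and 0.77 in pair 2, with a mean of 0.76 ± 0.02 and an adjusted p of 0.024 in the limma fit, and its other probe was dark. Dpysl2 had control levels of 7.52 and 6.76 and SOX11 levels of 8.19 and 7.52. Although the pups of pair 1 were brighter than those of pair 2, the ratios of 0.67 and 0.75 were close, and the mean was 0.71 ± 0.06 with an adjusted p of 0.031. Dpysl3 gave 0.46 and 0.69 with its brighter probe, both higher, with a mean of 0.57 ± 0.16 that did not pass the test. Its other probe, lit in the SOX11 channel of 1 array alone, gave -0.22 and 0.24, with a mean of 0.01. Crmp1 and Dpysl4 were dark. Of 3 Dcx probes, 1 was lit, in the SOX11 channel of pair 1 alone, with ratios of 1.12 and 0.42 and a mean of 0.77 ± 0.49 that did not pass the test.

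Mllt11, a small protein found in neurons and expressed at high levels in some leukaemias, read 7.06 and 8.48 in pair 1 and 7.73 and 8.61 in pair 2, control first. The induced values lay above both controls, and the mean log2 ratio of 1.15 ± 0.39 was a 2.23-fold difference with an adjusted p of 0.0067 in the limma fit. Rtn1, a membrane protein of the endoplasmic reticulum, gave -0.02 and 0.54. Eno2, the neuronal enolase, gave -0.13 and -0.37. Neither Rtn1 nor Eno2 passed the test, and Uchl1, Nnat and Bex2, all used as neuronal markers, were dark.

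The 6 SNARE and vesicle genes were lit in every case, and none was higher at an adjusted p under 0.05, beside 7.91% of all lit gene names. With 6 genes, nothing is read from this count. Snap25, the SNARE of the plasma membrane, had control levels of 9.14 and 9.13 and SOX11 levels of 9.44 and 9.36, with a mean log2 ratio of 0.26 ± 0.05. Synaptophysin (Syp), a membrane protein of synaptic vesicles, had control levels of 8.09 and 8.16 and SOX11 levels of 8.38 and 8.30, with a mean of 0.21 ± 0.11. Neither passed the test, though both were higher in both pairs. Both passed it under median centring, which moved the median log2 ratio of all lit probes from 0.045 to 0.517. Vamp2, the SNARE of the vesicle, gave -0.10 and -0.40. Syntaxin 1A (Stx1a) gave 0.31 and -0.42, and synapsin I (Syn1), which tethers vesicles to actin, gave -0.27 and 0.04.

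Cplx2 encodes complexin 2, which holds SNARE complexes ready for release, and it was the gene lower past an adjusted p of 0.05. That came from 1 of its 5 probes, and 4 of them consist of A and G alone. The first 30 bases of the fifth, which is of mixed sequence, follow for comparison.
Cplx2, mm9 chr13:54485200-54485259, plus strand: tccccactttgtatgatgcaaatgctaaga
The 4 repeat probes had mean ratios from -0.82 to -0.26, of which 1 passed with an adjusted p of 0.024 in the limma fit. The array annotation placed them on 3 chromosomes. The fifth probe read 6.12 and 6.43 in pair 1 and 6.66 and 6.33 in pair 2, control first, with a mean of -0.01 ± 0.45. On the whole array, 23 probes under 18 gene names were made of A and G alone. All 23 had a lower mean, with a median log2 ratio of -0.40, and 3 passed an adjusted p of 0.05. Their median log2 brightness was 13.0 against 5.24 over all probes, so probes of this composition were bright and read lower under all of these names, not under Cplx2 alone.

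**Figure D3:**
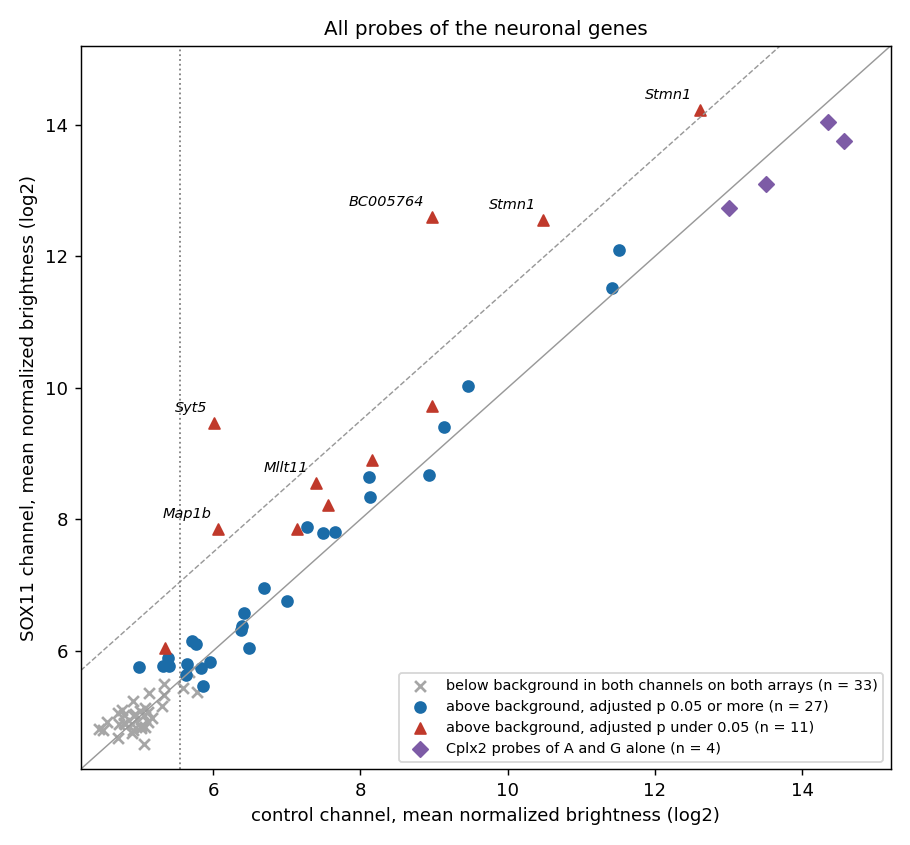
Mean normalized brightness of the control channel (horizontal axis, log2) against the SOX11 channel (vertical axis, log2) for all 75 probes; the solid line marks equal brightness, the dashed line a log2 ratio of 1.5 and the dotted line the lowest control signal well above background. The 4 Cplx2 probes of A and G alone are among the brightest and lie below the solid line, while probes of Syt5, BC005764, Stmn1 and Map1b lie above the dashed line.

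Of the 4 granule proteins, Chga (chromogranin A) was lit and bright, with control levels of 11.66 and 11.18 and SOX11 levels of 11.61 and 11.44. Its ratios of -0.04 and 0.26 went opposite ways. Scg3, which binds chromogranin A, gave -0.08 and -0.09. Neither passed the test, and Chgb and Scg2 were dark in both channels on both arrays.

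The 7 growth cone and adhesion genes, BC005764 among them, include receptors that let neurites hold to one another. Ncam1, the neural cell adhesion molecule, read 6.77 and 8.02 in pair 1 and 7.78 and 7.74 in pair 2, control first, so the ratio of 1.25 in pair 1 stood against -0.03 in pair 2. Nrcam likewise gave 0.61 and -0.30. Celsr3, an adhesion receptor of axon guidance, gave 0.22 and 0.38. L1cam, a relative of Nrcam, had control levels of 6.55 and 6.41 and SOX11 levels of 6.11 and 5.97, and was thus lower in both pairs by almost equal amounts, with a mean of -0.44. None of these 4 passed the test. Gap43, the growth-associated protein of axon tips, and Cntn2 were dark.

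Of the transcription factors, Insm1, a zinc-finger repressor of endocrine and neuronal progenitors, was lit only in the SOX11 channel, with 0.33 and 0.34. Its own control signal exceeded the dimmest signal above background, so the bound of at least 1.26-fold equals its measured ratio, which did not pass the test, while Neurod1 was dark. Neurofilaments and internexin were not lit on both arrays in any of the 4 genes. Nefl, Nefm and Nefh were dark, and 1 Ina probe was lit in the SOX11 channel of 1 array. Of the neuronal RNA-binding proteins, Elavl3 was dark and 1 Elavl4 probe was lit in the SOX11 channel of 1 array, with a mean of 0.36. The 25 probes of the 19 dark genes had mean log2 ratios from -0.42 to 0.36 with a median of 0.01, against -0.01 over all dark probes, and such ratios compare background with background. The split rests on a marker set by the software: in pair 1 the dimmest lit signal was that of Stmn4, at 32.4 scanner units over background, and the brightest unlit was that of Syt11, at 36.3. In pair 2 the dimmest lit was Syt1 at 36.9 and the brightest unlit was again Syt11 at 33.4.

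**Figure D4:**
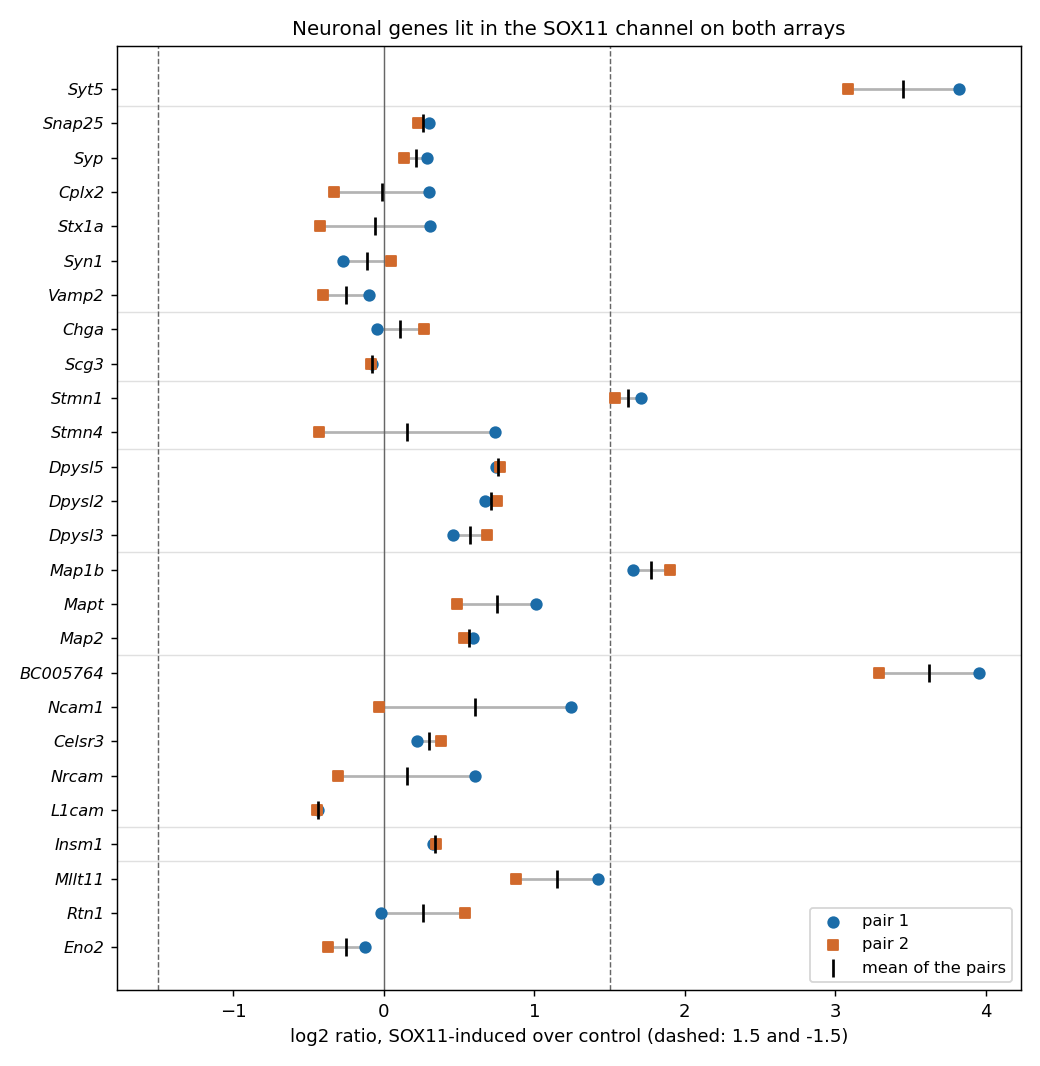
Log2 ratio of SOX11-induced over control (horizontal axis) in pair 1 (circles) and pair 2 (squares), with their mean (vertical tick), for the 26 genes lit in the SOX11 channel on both arrays, ordered by functional group; each gene is shown by its brightest probe, except Cplx2 by the probe that is not of A and G alone. Syt5, BC005764, Stmn1 and Map1b lie past 1.5 in both pairs, whereas Ncam1, Nrcam, Stx1a and Stmn4 have 1 pair on each side of 0.

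Median centring in place of loess moved the median log2 ratio of all lit probes from 0.045 to 0.517. On that scale, Vamp2, Eno2, Scg3, Syn1, Stx1a and the brightest Cplx2 probe had means between 0.02 and 0.44, above 0 but still under the median of all lit probes on that scale, and L1cam stayed at -0.19. The genes called under loess stayed higher, with BC005764 at 4.26 and Syt5 at 3.93.

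Other genes of the same systems, 234 of 254 listed, were measured on the array. Of these, 117 were lit in the SOX11 channel on both arrays and 100 were dark, beside 46.3% and 48.7% of all gene names. Called higher were 6 and lower none, beside 0.511% and 0.129% of all gene names. At an adjusted p under 0.05 of any size 19 were higher and 8 lower, beside 4.07% and 2.02% of all gene names. Dbn1 (drebrin, which binds actin filaments in neurites) gave 3.03 and 1.54, with a mean of 2.29. Kif21b, a kinesin motor of neurons, gave 2.38 and 1.71, with a mean of 2.05. Marcksl1, an actin-linked membrane protein, gave 2.10 and 1.68, with a mean of 1.89. Tmsb10 (thymosin beta 10, which binds actin monomers) gave 2.01 and 1.19, and Rbfox2, a splicing factor, gave 1.48 and 1.74. Rcor2, a partner of the repressor REST, gave 1.82 and 1.83. Genes called higher were 4 of 42 other neurite and cytoskeleton genes, of which 30 were lit, and none of 65 other vesicle and secretion genes, of which 35 were lit. Over the array 0.511% of all gene names and 1.11% of the lit ones were called higher. Of the 65 genes, 3 were higher and 4 lower at an adjusted p under 0.05 of any size. The difference between these lists was not tested. REST, which silences neuronal genes outside the nervous system, gave 0.80 and 0.54 with its brighter probe, with a mean of 0.67 and an adjusted p of 0.045 in the limma fit, and its other probe, with a mean of 0.54 and an adjusted p of 0.079, did not pass. The list of REST and its partners went both ways, with 3 of 10 genes higher and 2 lower at an adjusted p under 0.05. Besides Rcor2 and REST, Kdm1a was higher, with a mean of 1.10. Ctdspl was lower by both probes, with means of -1.37 and -1.10, and Rcor3 was lower with a mean of -1.07.

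Markers of the cells of neural character that the epidermis can hold were read in the same way. Of 12 Merkel cell markers measured, 6 were dark, the defining factors Atoh1 and Sox2 among them, and none passed the test. The other 6, the keratins Krt8, Krt18 and Krt20 with Cck, Npy and Rab3c, were lit in both channels on both arrays. Krt18 gave 1.63 in pair 1 and -0.12 in pair 2, and Npy gave 0.79 and -0.59. The 12 Merkel cell markers summed to 978 and 1497 in the controls and 1378 and 1417 in the induced pups. Sums here are of normalized levels on the linear scale, by the brightest probe of each gene. They include the dark genes, which add background and the offset, so they do not measure marker RNA alone. Of 14 sensory neuron markers, 10 were dark, Prph and Calca among them, and the sums were 529 and 514 in the controls and 763 and 636 in the induced pups. The median log2 ratio of these 14 markers, dark ones included, was -0.10, with -0.10 in pair 1 and 0.01 in pair 2. The typical marker of this list was thus not higher, although the sums were. Avil (advillin) was called higher, with 2.46 and 1.78, and P2rx3 was higher at an adjusted p of 0.014 in the limma fit by 1 of its 4 probes. Avil had the largest ratio of the list, with log2 levels of 5.70 and 8.17 in pair 1 and 5.54 and 7.32 in pair 2, control first. Of 13 Schwann cell markers, 4 were dark and 1 was higher through an Mbp probe that was dark, and the sums were 3835 and 4001 in the controls and 4078 and 4234 in the induced pups. The Schwann cell markers had a median log2 ratio of -0.10, with 0.05 in pair 1 and 0.04 in pair 2. Melanocyte markers had a median of 0.48 in pair 1 and -0.11 in pair 2. The part of any of these cells in the ratios of the vesicle and neurite genes was not tested.

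RefSeq promoter windows, on the build GRCm38.p6, were matched for 31 of the 49 genes, among them 4 of the 8 that were higher. The 250 bases upstream of the start are shown for 3 of these, BC005764, Dpysl5 and Map1b, because they held a searched word, and capitals mark those words. The word ACAAAG is bound by SOX factors, as are the word ACAATG and, overlapping it, the word AACAAT. The word CAGATG is bound by neuronal basic helix-loop-helix factors such as NEUROD1. The site of REST holds the word CAGCACC in its left part and the word GGACAG in its right part. Each word was sought on both strands.
BC005764 (Plppr3), GRCm38.p6 chr10:79874635-79874884, minus strand: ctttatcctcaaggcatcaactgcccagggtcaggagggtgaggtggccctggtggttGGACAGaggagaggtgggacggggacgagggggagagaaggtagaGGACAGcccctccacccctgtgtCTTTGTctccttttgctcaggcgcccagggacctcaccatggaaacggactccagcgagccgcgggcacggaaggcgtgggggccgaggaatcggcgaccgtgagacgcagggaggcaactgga
Dpysl5, GRCm38.p6 chr5:30711314-30711563, plus strand: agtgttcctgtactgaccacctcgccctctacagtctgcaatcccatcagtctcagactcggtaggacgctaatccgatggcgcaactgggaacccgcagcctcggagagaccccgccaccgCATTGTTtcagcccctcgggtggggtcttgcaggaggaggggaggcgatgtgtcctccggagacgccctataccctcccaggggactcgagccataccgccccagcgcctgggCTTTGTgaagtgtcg
Map1b, GRCm38.p6 chr13:99516603-99516852, minus strand: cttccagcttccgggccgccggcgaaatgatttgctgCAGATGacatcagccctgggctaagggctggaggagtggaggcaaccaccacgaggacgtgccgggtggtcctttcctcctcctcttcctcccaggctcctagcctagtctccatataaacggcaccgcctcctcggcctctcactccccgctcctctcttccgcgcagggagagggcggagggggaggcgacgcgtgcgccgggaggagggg
The window of BC005764 held GGACAG at 2 places and ACAAAG on the other strand, and that of Dpysl5 held all 3 SOX words on the other strand. The Map1b window held CAGATG, and none of the words was in the window of Mllt11. Over the whole 300-base windows, from 250 bases before the start to 50 after it, any SOX word was present in 12 of the 40 windows of these genes and in 33.2% of all 32851 windows. The shares were 22.5% against 17.2% for CAGATG, 12.5% against 7.14% for CAGCACC and 25.0% against 22.2% for GGACAG. Some genes have several windows, and windows of Elavl4 and of L1cam overlap and count the same CAGATG more than once. By gene, CAGATG was found in 6 of the 31, CAGCACC in 5, GGACAG in 9 and any SOX word in 10. A match is only a description of letters, and it says nothing of binding.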

How the data were processed

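Total RNA of the epidermis of 2 littermate pairs was hybridised to 2 two-colour Agilent arrays on 1 slide. The deposited scanner files hold, per the file headers, intensity values from Agilent Feature Extraction 10.7.3.1 with probe positions on mm9; the deposited log10 ratio column was not used. The authors' log2 ratios, deposited as the series table, were rebuilt from the scanner files with a correlation of 1 on both arrays. The methods describe a colour swap that the labels do not show. Here, mean spot and median background intensity were corrected by normexp (offset 16) and loess in limma 3.58.1 (R 4.3.3), and control and flagged spots (194 and 186) were left out. Spots of a probe were averaged, and an intercept was fitted to the 2 log2 ratios with eBayes and Benjamini-Hochberg adjustment over 55676 probes. The variance prior had 8.34 degrees of freedom and an SD of 0.223, and calls rest on it, since the smallest p of an exact sign-flip test with this number of arrays is 0.5. Channel levels are log2 intensity after loess and Aquantile scaling between arrays. The array number limits the precision.

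The members and lists were chosen with earlier results of these data known. Each of the 26 genes lit on both arrays is given with its values, by its brightest probe and others where they disagree. Of the dark genes counts and ranges are given, and of the other neuronal genes those called. REST, Kdm1a, Ctdspl and Rcor3 were added after their values were seen. Of the marker lists the defining markers are given. The lit Merkel cell markers and the keratinocyte markers were added after their values were seen. Protein sequences and a genome were not used here, and some probe sequences and a marker gene are not reported here. Alternatives were another offset, spot median, median centring, processed signals, the authors' table, a filter on dim probes, a fit without the pair, each pair left out and a linear threshold. Figures were drawn with matplotlib 3.10.9.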

Additional observations from a re-analysis of the deposited data

How the results depend on the processing

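Of the 49 genes, 4 were called under the median spot signal, the authors' table, the filter on dim probes and the removal of probes of A and G alone (the last chosen after seeing the sequences), 5 under median centring and 3 with an offset of 50, at which Map1b dropped below the size threshold at 1.35. With the scanner's processed signals, limma called 0 of the 49 genes, 0 other neuronal genes and 0 probes in all, while at an unadjusted p under 0.05 its size threshold was passed by 5 of the 49 genes and 936 probes; the cause was not tested. Median centring called 756 probes in place of 252, with 746 higher and 10 lower against 204 and 48, and 11 other neuronal genes in place of 6; the cause was not tested. A threshold of 1.5-fold on the linear scale called 2446 probes, with 1662 higher and 784 lower, 27 other neuronal genes and 9 of the 49 genes, or 8 without the probes of A and G alone; the lower threshold by its construction admits more. The median log2 ratio of lit genes was 0.77 under median centring and 0.46 with processed signals, and ranged from 0.30 to 0.40 with 1 pair left out.

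The littermate pairing is built into the ratio on each array. With no replicate block, treating the channels as separate samples, 4 of the 49 genes, 6 other neuronal genes and 236 probes were called, and the median stayed at 0.28. Mllt11, Dpysl5, Mapt and Dpysl2 then no longer passed an adjusted p of 0.05, with 0.091, 0.14, 0.14 and 0.35 in the limma fit. All 8 genes that were higher at an adjusted p under 0.05 lost it with processed signals, and Mapt lost it also with the median spot signal, the authors' table and the filter on dim probes. Map1b had a log2 ratio of 2.72 with processed signals. Under median centring, which raised lit probes as a whole, 10 further lit genes passed an adjusted p of 0.05 higher, Snap25, Syp, Chga, Dpysl3, Map2, Ncam1, Nrcam, Celsr3, Insm1 and Rtn1, with log2 ratios from 0.50 (Insm1) to 1.24 (Dpysl3). Dpysl3 and Map2 passed also with an offset of 50 (adjusted p of 0.011 and 0.0081 in the limma fit), and Map2 with the filter on dim probes (0.045). Leaving out 1 pair returns the ratio of the other pair, so for the 8 genes higher at an adjusted p under 0.05 it adds nothing to the values given by pair. The lit genes numbered 30 when 1 array sufficed and 34 by the software's other flag for a positive signal.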
